A study of Mus musculus with 2 samples.

Results

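Mpo, Elane, Prtn3, Ctsg, Ms4a3, Lyz2 and Srgn are genes of the neutrophil granule and of early myeloid progenitors, and all 7 of them were found among the 31053 genes of a single-cell matrix of mouse LSK cells. LSK cells are bone marrow cells that lack the markers of mature lineages and carry Sca-1 and c-Kit, a fraction that holds hematopoietic stem cells (HSCs) and the first multipotent progenitors. The genes were chosen by name, with earlier results of these data known, and no threshold on a value was used. The cells came from C57BL/6JRj mice without any transgene or treatment, in a young group (age 3 to 5 months) and an old group (22 to 28 months). In each group the cells of 4 mice were sequenced as 1 library by CITE-Seq, which reads the transcripts of a cell together with DNA tags on antibodies bound to its surface, here against CD150, CD48 and CLCA3A1.

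The 2 libraries carry the barcode suffixes 1 and 2, and neither the labels nor the methods pair a suffix with an age. Values are therefore given by suffix, apart from correlations that pool the cells of both, no comparison of ages was made, and no test was possible, since a suffix is 1 library and its cells are not replicates. The 95% intervals cover counting error only. Differences between the mice of a library cannot be seen.

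Neutrophil precursors pack proteins that kill microbes into azurophil granules, and they make these proteins early, at the promyelocyte stage. Mpo encodes myeloperoxidase, the heme enzyme of these granules, and Elane, Prtn3 and Ctsg encode the related serine proteases neutrophil elastase, proteinase 3 and cathepsin G. Srgn encodes serglycin, the proteoglycan whose sulfated chains hold the proteases in the granule, Lyz2 encodes the lysozyme of myeloid cells, and Ms4a3 encodes a membrane protein of granulocyte and monocyte progenitors. In the LSK fraction Mpo and its neighbours are used as signs of myeloid priming, whereas Flt3, a cytokine receptor of multipotent progenitors, and Dntt, the terminal transferase that adds bases to rearranging antigen receptor genes, are used as signs of lymphoid priming.

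The sequences that precede the start of the 4 azurophil granule enzyme genes are shown because these genes differed so widely in the cells described here. Elane and Prtn3 lie on the same strand of chromosome 10, with 3137 bases between them, and yet had unlike patterns over the cells. Each run is the 250 bases before the RefSeq start of the gene in GRCm38.p6, written 5′ to 3′ in the direction of the gene, with matches to AGGAAGT on the printed strand in capitals.
Mpo: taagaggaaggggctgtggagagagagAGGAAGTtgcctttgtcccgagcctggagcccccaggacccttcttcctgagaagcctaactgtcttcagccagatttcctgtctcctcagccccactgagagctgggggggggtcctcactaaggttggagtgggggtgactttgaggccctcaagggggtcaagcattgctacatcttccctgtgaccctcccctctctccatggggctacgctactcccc
Elane: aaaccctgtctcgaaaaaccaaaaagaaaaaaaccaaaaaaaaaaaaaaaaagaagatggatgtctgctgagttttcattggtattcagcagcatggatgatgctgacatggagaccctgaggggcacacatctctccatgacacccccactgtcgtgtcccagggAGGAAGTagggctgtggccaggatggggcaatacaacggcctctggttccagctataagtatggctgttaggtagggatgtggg
Prtn3: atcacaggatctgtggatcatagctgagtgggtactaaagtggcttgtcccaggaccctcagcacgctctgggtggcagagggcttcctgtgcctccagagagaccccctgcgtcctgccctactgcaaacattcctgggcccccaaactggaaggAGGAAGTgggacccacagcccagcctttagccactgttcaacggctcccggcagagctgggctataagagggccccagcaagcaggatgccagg
Ctsg: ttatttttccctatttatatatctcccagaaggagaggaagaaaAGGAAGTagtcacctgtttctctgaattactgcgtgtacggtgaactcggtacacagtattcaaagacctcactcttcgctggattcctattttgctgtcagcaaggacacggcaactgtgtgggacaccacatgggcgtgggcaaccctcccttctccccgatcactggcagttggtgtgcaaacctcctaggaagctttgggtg
The windows lie at chr11:87793534-87793783 (plus strand) for Mpo, chr10:79886062-79886311 (plus strand) for Elane, chr10:79879417-79879666 (plus strand) for Prtn3 and chr14:56102575-56102824 (minus strand) for Ctsg. All 4 hold AGGAAGT, a form of the GGAA core that ETS family factors such as PU.1 read. The match starts 223 bases before the gene for Mpo, 84 bases for Elane, 94 bases for Prtn3 and 206 bases for Ctsg. Elane and Prtn3 also share CAACGG, a match to the MYB-type CAACNG, which starts 51 and 56 bases before the gene, and other matches to CAACNG lie in the windows of Ctsg, Lyz2 and both starts of Srgn. The window of Lyz2 holds AGGAAGT on the other strand, and the windows of Ms4a3 and of the 2 starts of Srgn hold none. Read on both strands, AGGAAGT was present in 7.69% of 32851 such windows and CAACNG in 29.3%. TTNNGNAA, the letters of a C/EBP-type site, was present in 36.8% and in the windows of Ms4a3, Lyz2 and 1 start of Srgn. These letters were chosen after the sequences had been seen, can overlap one another, and say nothing of whether a factor was bound.

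A cell was kept where under 10% of its transcripts were mitochondrial and over 1500 genes were detected, which left 4068 of 4688 cells, 1524 of suffix 1 and 2544 of suffix 2. A kept cell held a median of 15023.5 transcripts (unique molecular identifiers, UMIs) in suffix 1 and 14766.5 in suffix 2, and no barcode sequence was shared by the suffixes. Tags were read in 1497 and 2489 of these cells. Levels are UMI counts summed over the cells of a gate and scaled to 1000000 UMIs in all (CPM). The labelled identity was checked on Kit, which lay between 119 and 172 CPM, and on Ly6a, which encodes Sca-1 and lay between 199 and 576 CPM, over all gates of both suffixes. Markers of mature neutrophils, 8 genes such as S100a8 and Retnlg, summed to at most 13.1 CPM in any gate. Markers of B and plasma cells summed to 564 CPM or less in 6 of the 8 combinations of gate and suffix, but to 7416 CPM in CD150-low CD48-low cells of suffix 1 and 5741 CPM in CD150-low CD48-high cells of suffix 2. The 7 genes together gave 58520 UMIs in suffix 1 and 118424 in suffix 2, which is 0.214% and 0.269% of all UMIs.

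Cells were divided by their tags, with CD150 split at the 75th and CD48 at the 25th percentile of each suffix. CD150-high CD48-low cells are the gate in which long-term HSCs are sought, and CD150-low CD48-high cells, the most numerous, are a gate of multipotent progenitors. The 4 gates CD150-high CD48-low, CD150-low CD48-low, CD150-high CD48-high and CD150-low CD48-high held 172, 204, 209 and 912 cells in suffix 1 and 383, 250, 241 and 1615 cells in suffix 2. The tags differed in strength between the suffixes, with the CD150 split at 40 tags in suffix 1 and 407 in suffix 2 and the CD48 split at 224 and 42. The same gate name therefore need not mean the same cells in both. Depth differed too, from a median of 11943 UMIs in CD150-low CD48-low to 19922 in CD150-high CD48-high cells of suffix 1, and from 11203 to 16320 UMIs over the gates of suffix 2.

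The 7 genes fell into 2 kinds of pattern. Mpo, Elane, Ctsg and Ms4a3 were close to absent in the CD150-high CD48-low gate and were highest in CD150-low CD48-high cells. Prtn3, Lyz2 and Srgn were found in nearly every cell of every gate. Thus Prtn3, the protease gene beside Elane, was detected in cells where its neighbour was not.

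In suffix 1, Mpo stood at 0.888 CPM in CD150-high CD48-low, 7.92 CPM in CD150-low CD48-low, 35.9 CPM in CD150-high CD48-high and 139 CPM in CD150-low CD48-high cells. In suffix 2 the Mpo values in the same order were 1.71, 1.39, 29.0 and 301 CPM. Each step of the order in suffix 1 exceeded counting error, while in suffix 2 the 2 CD48-low gates could not be told apart. The lowest value rests on 2 UMIs in suffix 1 and 4 UMIs in suffix 2. Without the called doublets, 20 of which lay among the 241 CD150-high CD48-high cells of suffix 2, Mpo in that gate was at 8.96 CPM. Where over 2500 genes and under 5% mitochondrial UMIs were required, Mpo in CD150-low CD48-high cells was at 285 and 645 CPM. CD150-low CD48-high cells had 156 times the Mpo level of CD150-high CD48-low cells in suffix 1 (interval 43.2 to 1292) and 176 times in suffix 2 (92.8 to 386). A Mpo UMI was present in 1.16% of CD150-high CD48-low cells and 37.3% of CD150-low CD48-high cells of suffix 1, and in 2.35% and 43.8% of suffix 2. With every cell thinned at random to 9000 UMIs, so that all had 1 depth, these shares were 1.28% and 28.1% in suffix 1 and 1.65% and 37.5% in suffix 2, and Mpo was thus not found in most cells of its highest gate.

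Ctsg, the cathepsin G gene, followed Mpo in its order. It stood at 0.888, 1.98, 7.95 and 60.4 CPM in CD150-high CD48-low, CD150-low CD48-low, CD150-high CD48-high and CD150-low CD48-high cells of suffix 1. In suffix 2 the Ctsg values were 1.14, 0.347, 26.1 and 221 CPM. The 2 CD48-low gates, with 1 to 6 UMIs each, did not differ beyond counting error in either suffix. The level in CD150-low CD48-high cells was 68.0 times that of CD150-high CD48-low cells in suffix 1 (18.8 to 562) and 194 times in suffix 2 (88.9 to 528). In suffix 1 the ratio was 38.8 without the 10 cells with the most Elane UMIs and 18.4 with 1 tag cut for both suffixes, alternatives chosen after seeing the data.

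Elane was found almost solely in the CD150-low CD48-high gate, at 42.5 CPM in suffix 1 (749 UMIs) and 27.8 CPM in suffix 2 (858 UMIs). The other 3 gates held 0 or 1 Elane UMIs each in suffix 1 and 2 or 3 each in suffix 2. No Elane UMI was seen in the 209 CD150-high CD48-high cells of suffix 1, which allows a share of up to 1.44% of cells with a UMI by the limit of 3 counts (exact upper bound 1.75%). Set against 3 counts in that gate, Elane was at least 65.9-fold higher in CD150-low CD48-high cells, while the exact interval of the ratio starts at 53.4. Of the 749 UMIs, 548 came from 1 cell. Even in the CD150-low CD48-high gate a UMI of elastase was rare, in 1.97% of cells of suffix 1 and 3.96% of suffix 2 (1.25% and 2.25% after thinning to 9000 UMIs).

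Ms4a3 gave 233 UMIs in all kept cells of suffix 1 and 435 in suffix 2. It stood at 0.888, 1.58, 4.94 and 11.6 CPM over the 4 gates of suffix 1 in the order used above, and at 0.38, 1.39, 2.02 and 13.6 CPM in suffix 2. The CD48-low gates did not differ beyond counting error, nor did CD150-low CD48-low from CD150-high CD48-high cells in suffix 2. The share of cells did not follow the level in suffix 1, so no order is read from it. With all cells thinned to 9000 UMIs, a Ms4a3 UMI was found in 9 of 206 CD150-high CD48-high cells (4.37%, interval 2.02 to 8.13) and 14 of 879 CD150-low CD48-high cells (1.59%, 0.873 to 2.66), and without thinning in 8.13% and 2.85%. The cell with the most Ms4a3 UMIs held 97 in the latter gate and 4 in the former. In suffix 2 the thinned shares were 2.10% and 4.05%, and 3.32% and 8.48% without thinning.

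**Figure D1:**
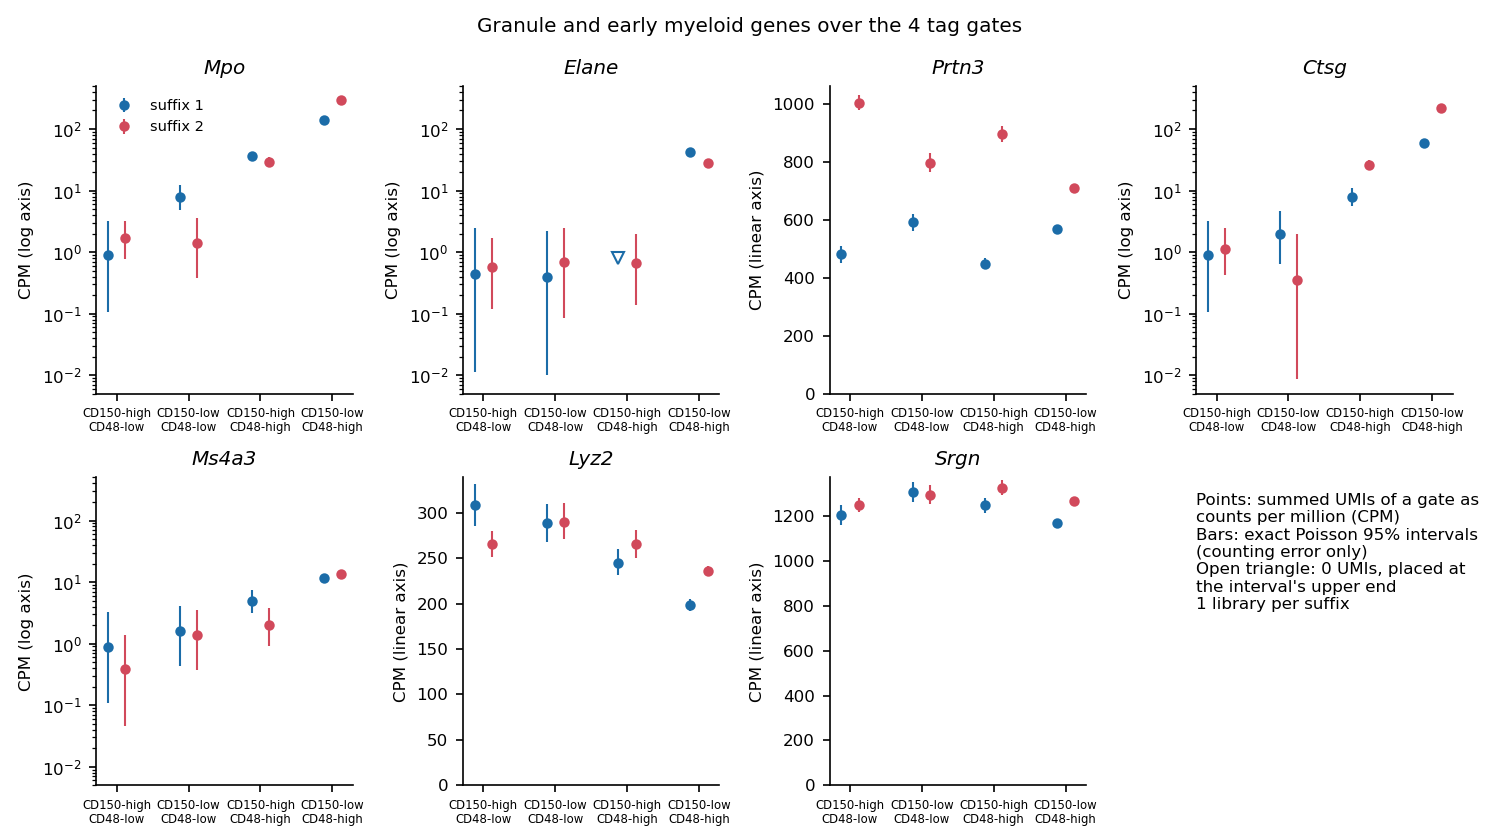
Counts per 1000000 UMIs (CPM) of the 7 genes in the 4 tag gates, 1 panel per gene, with 1 colour per barcode suffix (each suffix is 1 library) and bars for exact Poisson intervals of 95%; axes are logarithmic for Mpo, Elane, Ctsg and Ms4a3 and linear from 0 for Prtn3, Lyz2 and Srgn, and the open triangle (Elane, CD150-high CD48-high, suffix 1) marks 0 UMIs at the upper end of its interval. Mpo runs from 0.888 to 139 CPM in suffix 1 and from 1.39 to 301 CPM in suffix 2, while Srgn stays between 1169 and 1328 CPM.

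Prtn3 was lowest in the 2 CD150-high gates of suffix 1, which did not differ beyond counting error, and in CD150-low CD48-high cells of suffix 2. In suffix 1 it stood at 481 CPM in CD150-high CD48-low (453 to 510), 591 CPM in CD150-low CD48-low, 449 CPM in CD150-high CD48-high and 569 CPM in CD150-low CD48-high cells (558 to 580). In suffix 2 the values were 1004 CPM (977 to 1031), 796, 895 and 709 CPM (700 to 719). CD150-low CD48-high over CD150-high CD48-low was thus 1.18 in suffix 1 (1.11 to 1.26) and 0.706 in suffix 2 (0.685 to 0.728), both beyond counting error and in opposite directions. With over 2500 genes and under 5% mitochondrial UMIs required, which left 372 cells, both ratios were above 1, at 1.88 and 1.21. A Prtn3 UMI was present in 95.9% of cells or more in every gate. Without the 10 cells of each suffix that held the most Elane UMIs, a choice made after seeing the data, the ratios were 1.07 and 0.652.

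Lyz2 in suffix 1 stood at 308, 289, 245 and 199 CPM in CD150-high CD48-low, CD150-low CD48-low, CD150-high CD48-high and CD150-low CD48-high cells, and the first 2 of these did not differ beyond counting error. In suffix 2 it varied less, with 265, 290, 265 and 236 CPM. CD150-low CD48-high cells were lowest in both, at 0.645 times (0.594 to 0.701) and 0.89 times (0.84 to 0.943) the level of CD150-high CD48-low cells. With over 2500 genes and under 5% mitochondrial UMIs required the ratios were 0.447 and 1.01, so the lower level was not seen in suffix 2. The paralogous lysozyme gene Lyz1 gave 2 UMIs in suffix 1 and 6 in suffix 2, against 6154 and 10825 for Lyz2, so few of these reads were assigned to the other copy.

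Srgn had a UMI in 100% of cells of every gate. Its level ran from 1169 to 1307 CPM over the gates of suffix 1 and from 1250 to 1328 CPM in suffix 2. CD150-low CD48-high over CD150-high CD48-low gave 0.971 (0.933 to 1.01) and 1.01 (0.988 to 1.04), and neither differed beyond counting error. With over 2500 genes and under 5% mitochondrial UMIs required the ratios were 0.734 and 0.722, and with both tags split at the median 0.885 and 0.925. The proteoglycan gene that serves granule storage thus varied less over the gates than the enzyme genes Mpo and Ctsg. The enzyme genes Prtn3 and Lyz2, however, were also found in nearly every cell.

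Of the 7 genes, 4 were higher by 2-fold or more in CD150-low CD48-high than in CD150-high CD48-low cells in both suffixes, namely Mpo, Elane, Ctsg and Ms4a3. The background among genes with at least 20 CPM was 3.85% for both suffixes together (233 of 6047 genes), 4.5% in suffix 1 and 8.06% in suffix 2. The median ratio of the 7 genes was 13.0 and 35.9, beside 1.05 and 1.11 over all genes tested. That median is the ratio of Ms4a3, which rests on 2 UMIs in each denominator. Without the 10 cells with the most Elane UMIs of each suffix it was 1.37 over the 6 genes with a ratio in suffix 1 and 5.99 over 7 in suffix 2. Ms4a3 itself lay under 20 CPM over all tagged cells in both suffixes and Elane, at 19.9 CPM, in suffix 2, and they are counted here since all 7 are accounted for.

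In CD150-high CD48-high over CD150-high CD48-low cells, Mpo, Ctsg and Ms4a3 were past 2-fold in both suffixes, which is 3 of 7 beside a background of 2.41%. The ratio for Mpo was 40.4 in suffix 1 and 17.0 in suffix 2, for Ctsg 8.95 and 22.9, and for Ms4a3 5.57 and 5.33, each resting on 2 to 9 UMIs in the denominator. Without called doublets the CD150-high CD48-high level of suffix 2 was 8.96 CPM for Mpo and 2.90 CPM for Ctsg, against 29.0 and 26.1 CPM with them. Between the 2 CD48-low gates 0 of 7 genes were past 2-fold in the same direction in both suffixes (background 0.579% higher and 0.0661% lower). Mpo was 8.91 times higher in CD150-low CD48-low cells of suffix 1 (2.17 to 78.7) and 0.813 times in suffix 2 (0.183 to 2.91).

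Between the suffixes, within a gate, the 7 genes made 28 pairs of gene and gate, and 7 of these differed by 2-fold or more, while 4 pairs with 3 UMIs or fewer on both sides were given no ratio. In CD150-low CD48-high cells, suffix 2 had 2.17 times the Mpo (2.07 to 2.27) and 3.65 times the Ctsg (3.42 to 3.90) of suffix 1, where 0.591% of genes were higher by 2-fold or more and 0.128% lower. Elane there stood at 0.655 times (0.593 to 0.724). The 10 cells with the most Elane UMIs held 98.5% of it in suffix 1 and 86.9% in suffix 2. Without them Elane was at 0.63 CPM in suffix 1 and 3.41 CPM in suffix 2. These cells were chosen by Elane itself, so no direction is read from that. Prtn3 was 2.09 times higher in CD150-high CD48-low cells of suffix 2 (1.96 to 2.23), in a gate where 0.735% of genes were so and 3.72% were lower. In CD150-high CD48-high cells Ctsg was 3.28 times higher (2.25 to 4.89; background 1.39%), but without called doublets it was at 8.01 CPM in suffix 1 and 2.90 CPM in suffix 2. Ms4a3 there was at 0.41 times (0.167 to 0.919; background 3.8% lower), and Prtn3 at 2.00 times missed the count narrowly. In CD150-low CD48-low cells Mpo was at 0.176 times on 4 against 20 UMIs (0.0436 to 0.524). Ctsg there was also at 0.176 times, on 1 against 5 UMIs (0.00371 to 1.57), with an interval that holds 1 (background 2.11% lower and 0.911% higher). These ratios compare 2 libraries, and age, library and any other difference between them cannot be told apart.

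How the UMIs were spread over cells separated the genes further. All 752 Elane UMIs of suffix 1 lay in 21 cells, and 1 cell held over 50% of them. In suffix 2, 868 UMIs lay in 73 cells and 2 cells held 50%. The 10 cells with the most Elane held 98.5% and 86.9% of it. Elane values per gate are therefore values of a few cells.

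Mpo was spread more widely, with 50% of its UMIs in 22 cells of suffix 1 and 49 of suffix 2. For Ctsg 50% lay in 5 and 46 cells, and for Ms4a3 in 2 and 8 cells. Prtn3 needed 348 and 564 cells, Lyz2 390 and 675, and Srgn 463 and 815. In the cells thinned to 9000 UMIs, the variance of UMIs per cell over its mean was 140 and 40.3 for Elane, 19.1 and 15.3 for Mpo, 18.8 and 12.8 for Ctsg and 15.2 and 6.20 for Ms4a3. It was 8.52 and 4.38 for Prtn3, and 1.68 or less for Lyz2 and Srgn, where counting alone gives a ratio of about 1.

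**Figure D2:**
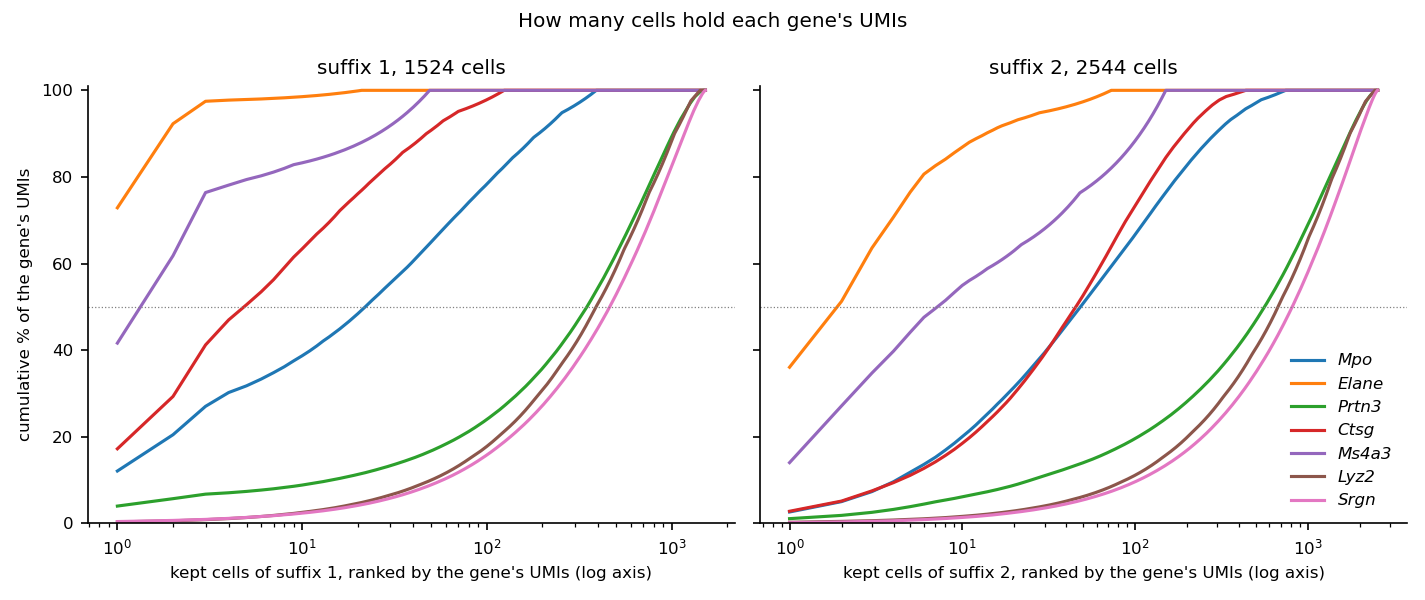
Cumulative percent of the UMIs of each gene (vertical axis) held by the cells ranked from the highest to the lowest (horizontal axis, logarithmic), 1 panel per suffix and 1 line per gene over all kept cells. The Elane line stands at 98.5% and 86.9% after 10 cells, far above the lines of Lyz2 and Srgn.

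The first 3 cells of suffix 1 by Elane UMIs and the first 10 of suffix 2 carried all 4 azurophil enzyme transcripts. The first cell of suffix 1, with 26926 UMIs in all, held 548 of Elane, 221 of Mpo, 594 of Prtn3, 191 of Ctsg and 97 of Ms4a3. It had no UMI of Flt3, Dntt, Kit, Ly6a or Cd34, although it had been sorted as an LSK cell. It had 7 UMIs of Cebpe, a transcription factor of granule maturation. The next 2 cells of suffix 1 held 146 and 39 Elane UMIs, with 319 and 173 of Mpo, and the other 7 of its first 10 held at most 2 Elane UMIs, 6 of them without Mpo and 5 without Ctsg. In suffix 2 the first 10 cells held 11 to 313 Elane UMIs, 96 to 248 of Mpo, 38 to 370 of Prtn3 and 38 to 194 of Ctsg. Their Flt3 counts ran from 0 to 10 and their Dntt counts were 0 in all but 1 cell, which had 1. Kit ran from 0 to 5 UMIs and Ly6a from 0 to 17 in them, and the cell ranked 9 had neither, with 20 UMIs of Cebpe. All 10 lay in the CD150-low CD48-high gate and none was called a doublet.

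Without the 10 cells with the most Elane UMIs of each suffix, Elane in the CD150-low CD48-high gate was at 0.63 and 3.41 CPM. Its fall was fixed by the choice of these cells. In suffix 1 no Elane UMI was left in the CD150-high CD48-low gate, so Elane had no ratio. Of the 7 genes 2, Mpo and Ctsg, remained past 2-fold in both suffixes. The share over all genes was not computed without these cells. The Ms4a3 ratio of suffix 1 was then 1.66. Mpo and Ctsg were thus higher in CD150-low CD48-high cells also without these cells. In suffix 1, however, 8.42% of the thinned cells of that gate had Ctsg. The 10 cells with the most Ctsg held 63.4% of its UMIs there. The Ms4a3 difference of suffix 1 and the Elane differences of both suffixes rested on few cells. In suffix 2 the Elane ratio went from 48.8 to 5.99.

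The broad Prtn3 signal did not rest on these few cells. In cells thinned to 9000 UMIs the median Prtn3 count was 4 in CD150-high CD48-low and 4 in CD150-low CD48-high cells of suffix 1, with 10th and 90th percentiles of 1 and 8 and of 1 and 9. In suffix 2 it was 9 (4 to 15) and 5 (1 to 12). The mean hid part of this in suffix 1, since the highest CD150-low CD48-high cell had 204 Prtn3 UMIs. Median counts were 2 or 3 for Lyz2 and 10 to 12 for Srgn in every gate.

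Free RNA in droplets can give UMIs in cells that do not express a gene. The 12 cells with over 10% immunoglobulin UMIs, a cell type that should lack granule genes, held 0 Prtn3 UMIs in 2 cells of suffix 1 and 10 in 10 cells of suffix 2 (27.8 CPM, in 2 of 10 cells), at median depths of 28475 and 34458 UMIs. Lyz2 stood at 17.6 and 22.2 CPM there, and Srgn at 263 and 306 CPM. The Prtn3 level of suffix 2 is under that of every gate there by more than an order of magnitude, and the 2 cells of suffix 1 allow up to 64.8 CPM. Immunoglobulin UMIs lower the CPM of all other genes in these cells, and some of the cells held Flt3 or Dntt, so they are no clean reference. The part of free RNA in the levels of the gates was not tested. In the 10 cells of suffix 2, Mpo was found in 2 (8.33 CPM), Elane in 1 (2.78 CPM), Ctsg in none, Flt3 in 4 (30.6 CPM) and Dntt in 1 (41.7 CPM), and the 2 cells of suffix 1 had none of these. The Mpo level of these 10 cells rests on 3 UMIs (1.72 to 24.4 CPM) and the Elane level on 1 UMI (0.0703 to 15.5 CPM). Both intervals overlap those of the CD48-low gates of suffix 2. The few UMIs of those gates are not read as expression, and whether they are background was not tested. A single UMI of Mpo, Elane, Flt3 or Dntt may be background. Values without these cells lay within the intervals of all 56 levels.

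Granule genes were next read against the lymphoid priming genes in single cells. In CD150-low CD48-high cells thinned to 9000 UMIs, a Flt3 UMI was found in 197 of 247 cells with Mpo (79.8%, exact interval 74.2 to 84.6) and in 503 of 632 cells without Mpo (79.6%, 76.2 to 82.7) in suffix 1. In suffix 2 it was found in 378 of 583 cells with Mpo (64.8%, 60.8 to 68.7) and 458 of 973 without (47.1%, 43.9 to 50.3). Flt3 was thus no rarer in cells with Mpo than in cells without it, and in suffix 2 it was more frequent by more than counting error.

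The same held for Dntt. A Dntt UMI was found in 142 of 247 cells with Mpo (57.5%, 51.1 to 63.7) and 275 of 632 without (43.5%) in suffix 1, and in 242 of 583 (41.5%, 37.5 to 45.6) and 186 of 973 (19.1%) in suffix 2. Thinning does not make cells alike, since cells with Mpo had been deeper before it, with a median of 21977 against 15510 UMIs in suffix 1 and 21928 against 14753 in suffix 2. Without thinning the Flt3 shares were 93.5% against 85.8% in suffix 1 and 80.6% against 54.5% in suffix 2, and the Dntt shares 70.6% against 45.3% and 51.3% against 19.4%. Over all kept cells, where the gates mix, the thinned Flt3 shares were 76.7% against 59.7% and 63.7% against 29.5%.

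All 3 transcripts, Mpo, Flt3 and Dntt, were seen in 129 of 879 CD150-low CD48-high cells of suffix 1 (14.7%) and 206 of 1556 of suffix 2 (13.2%). Mpo without Flt3 and Dntt was seen in 37 cells (4.21%) and 169 cells (10.9%). None of the 3 was seen in 12.2% and 31.4%. Cells with Mpo alone were therefore fewer than cells with all 3 in both suffixes. Flt3 was found in 79.6% and 53.7% of all these cells, with or without Mpo. Of the cells with Mpo, 117 in suffix 1 and 223 in suffix 2 held 1 Mpo UMI, which may be background.

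Ctsg resembled Mpo in this respect. Flt3 was found in 63 of 74 Ctsg-positive cells (85.1%) against 79.1% of the others in suffix 1, and in 255 of 347 (73.5%) against 48.1% in suffix 2. Dntt was found in 64.9% against 45.8% and in 52.7% against 20.3%. Ms4a3 differed from Ctsg in this respect in suffix 2, with Flt3 in 24 of 63 Ms4a3-positive cells (38.1%, 26.1 to 51.2) against 54.4% of the others and Dntt in 7 of 63 (11.1%, 4.59 to 21.6) against 28.2%. Without thinning the difference was small for Flt3, at 63.5% against 66.2%, and over all kept cells without thinning it turned, at 60.3% against 45.3%. For Dntt the unthinned shares were 26.3% against 34.0%. In suffix 1 only 14 cells had Ms4a3, of which 8 had Flt3 (57.1%, 28.9 to 82.3) and 4 had Dntt (28.6%, 8.39 to 58.1), and both intervals hold the 80% and 47.7% of the other cells.

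Elane-positive cells were too few for a reading in suffix 1, where 7 of 11 had Flt3 and 2 of 11 had Dntt. In suffix 2, 24 of 35 had Flt3 (68.6% against 53.4%) and 11 of 35 had Dntt (31.4% against 27.4%). Prtn3 was found in 92.9% and 95.1% and Lyz2 in 80.9% and 85.7% of these thinned cells, so for them the cells without a UMI are the smaller group. Dntt was found in 79% of Prtn3-negative against 45% of Prtn3-positive CD150-low CD48-high cells of suffix 1 and in 29.9% against 27.4% of suffix 2. For Lyz2 the shares were 58.3% against 44.9% and 41.0% against 25.3%. Without thinning, the Prtn3 shares were 69.0% against 54.2% in suffix 1 and 24.1% against 33.5% in suffix 2, the other direction, on 29 Prtn3-negative cells in each. The Lyz2 shares were then 61.4% against 54.2% and 36.4% against 33.2%. In the thinned comparison the Prtn3-negative cells had been deeper, with a median of 19727 against 16492 UMIs in suffix 1 and 22496 against 16557 in suffix 2.

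**Figure D3:**
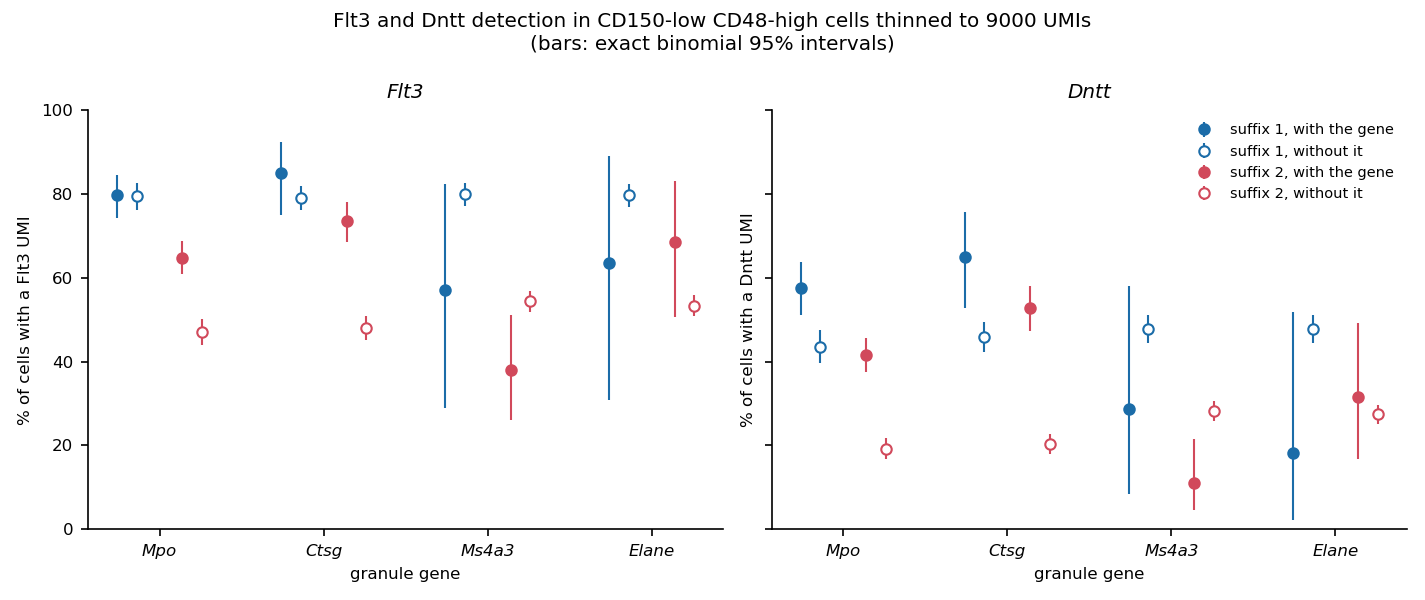
Percent of CD150-low CD48-high cells, thinned to 9000 UMIs, with a UMI of Flt3 (left) or Dntt (right) among cells with (filled) and without (open) a UMI of each granule gene, by suffix; bars are exact binomial intervals of 95%. Filled points lie above open points for Ctsg in both suffixes. Those for Ms4a3 lie below, with intervals that hold the open points in suffix 1.

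Cells were also ordered by the level of Mpo. Those thinned to 9000 UMIs were placed in bins of 0, 1, 2 to 4, 5 to 14 and 15 or more Mpo UMIs, which held 1153, 136, 96, 38 and 5 cells in suffix 1 and 1793, 239, 183, 137 and 45 in suffix 2. Flt3 was found in 29.5%, 54.4%, 73.2%, 72.3% and 48.9% of these bins in suffix 2. In suffix 1 the shares were 59.7%, 74.3%, 82.3%, 73.7% and 60% (3 of 5 cells). These bins mix the gates. Within CD150-low CD48-high cells alone, a choice made after seeing the data, the Flt3 shares were 47.1%, 56.5%, 73.9%, 71.9% and 48.9% in suffix 2, highest at an intermediate amount of Mpo. In suffix 1 they were 79.6%, 77.8%, 84.8%, 75.8% and 60%, with intervals that overlap.

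Dntt was found in 11.4%, 36.4%, 50.3%, 41.6% and 24.4% of cells over the Mpo bins of suffix 2 and in 26.9%, 50.7%, 55.2%, 55.3% and 40% in suffix 1. Within CD150-low CD48-high cells it was found in 19.1%, 38.1%, 50%, 41.5% and 24.4% in suffix 2 and in 43.5%, 58.1%, 56.5%, 60.6% and 40% in suffix 1. Its level in suffix 2 was 480 CPM in cells with 1 Mpo UMI and 36.5 CPM in cells with 15 or more. No cell had 15 or more UMIs of both Mpo and Dntt, although 5 and 68 cells of suffix 1 and 45 and 59 of suffix 2 had so many of 1 of them. At 5 or more UMIs of each there were 13 such cells in suffix 1 and 16 in suffix 2. With so few cells at the highest levels, the absence of cells high in both is a count and no contrast with the lower levels is read from it.

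Ctsg was found in ever more cells along the Mpo bins, from 3.9% to 19.7%, 49.2%, 81.8% and 97.8% of cells in suffix 2 and from 2.34% to 100% in suffix 1. Elane was at 4.37% or less up to 14 Mpo UMIs and at 42.2% in the highest bin of suffix 2 (60% in suffix 1, 3 of 5 cells), and Ms4a3 was at 33.3% there after 6.01% or less. Prtn3 stood at 702, 532, 682, 901 and 2656 CPM over the bins of suffix 2. Ctsg and Elane were thus found most often in the few cells with the most Mpo, though in suffix 2 most of these had no Elane UMI. In that bin Kit was found in 48.9% of cells against 67.8% of cells without Mpo.

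Other genes over these bins, looked up after the bins had been made, were markers of cycling and of lineage. In suffix 2 Mki67, a proliferation marker, was found in 11.5%, 28.9%, 41.0%, 49.6% and 48.9% of cells, and Irf8, a transcription factor of monocytes and dendritic cells, in 8.87%, 21.3%, 25.1%, 35.8% and 62.2%. Cebpa, the factor that sets up the granulocyte programme, was found in 8.64% of cells without Mpo and 62.2% of those with the most. Procr, a marker of HSCs, went down from 61.6% to 6.67%. In suffix 1 Mki67 was found in 18.2%, 33.8%, 38.5%, 52.6% and 40% of cells, Irf8 in 11.7%, 19.1%, 22.9%, 42.1% and 80%, Cebpa in 24.4% at first and 60% at last, and Procr in 39.5% and 20%, the last bin being 5 cells. Within CD150-low CD48-high cells of suffix 1, Cebpa was found in 33.4%, 28.2%, 34.8% and 33.3% of cells up to 14 Mpo UMIs, without a rise. In suffix 2 it went from 13.8% to 62.2% there. Mki67 within that gate went from 18.3% to 48.9% in suffix 2 and from 21.2% to 51.5% with 5 to 14 Mpo UMIs in suffix 1. Cell cycle genes and Mpo moved together here, and their part in the result was not tested.

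**Figure D4:**
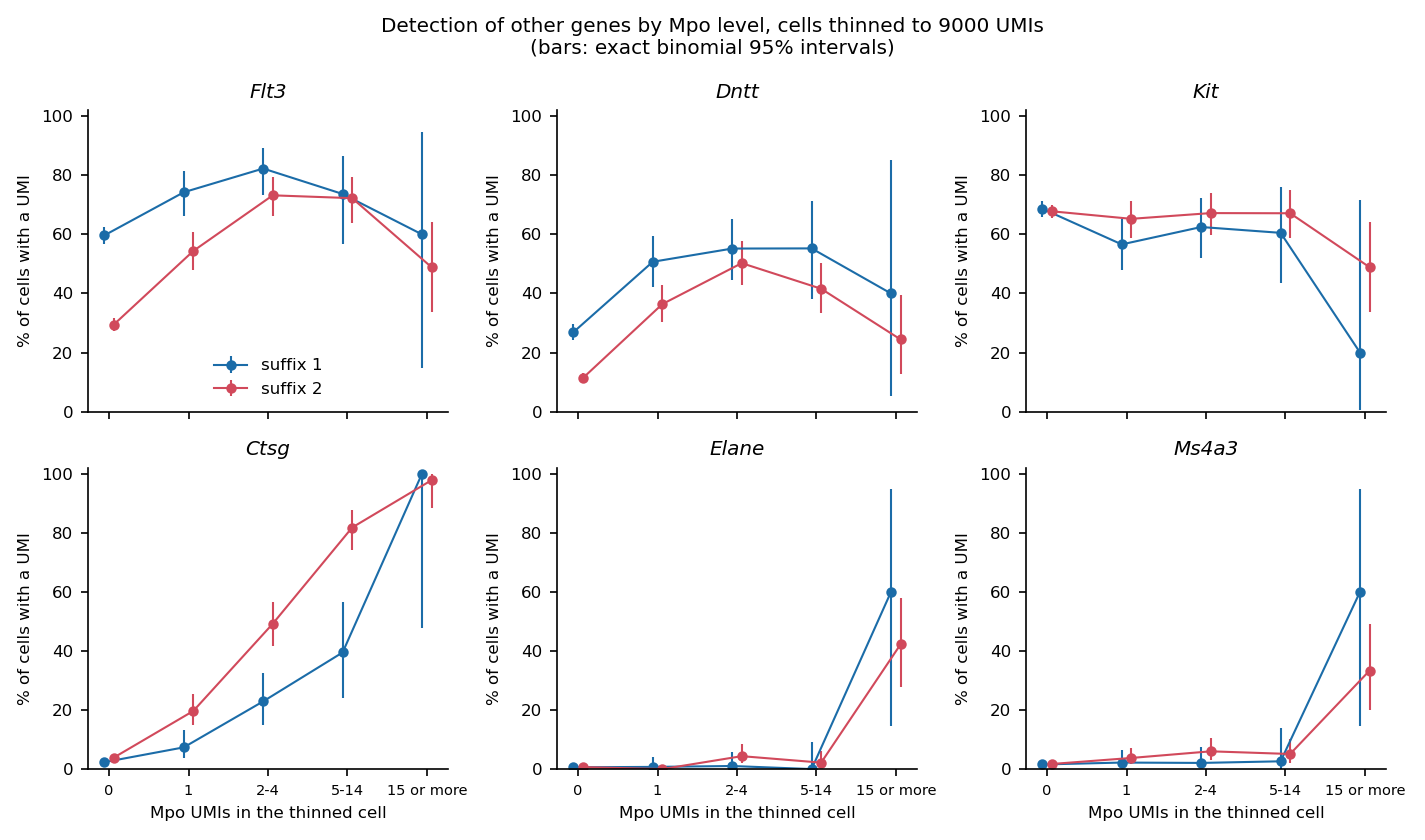
Percent of cells (vertical axis) with a UMI of Flt3, Dntt, Kit, Ctsg, Elane or Ms4a3, in cells thinned to 9000 UMIs and placed in bins by their Mpo UMIs (horizontal axis), by suffix, over all kept cells; bars are exact binomial intervals of 95%. In suffix 2 Flt3 peaks at 73.2% with 2 to 4 Mpo UMIs, while Ctsg climbs to 97.8%; the highest bin of suffix 1 has 5 cells.

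Read from the lymphoid side, the broadly found genes declined with Dntt. Cells with 0, 1, 2 to 4, 5 to 14 and 15 or more Dntt UMIs (973, 119, 130, 138 and 68 cells in suffix 1 and 1946, 152, 137, 103 and 59 in suffix 2) had a mean of 5.30, 5.29, 4.95, 3.87 and 2.71 Prtn3 UMIs per 9000 in suffix 1. The means were 7.23, 7.32, 5.66, 4.69 and 2.83 in suffix 2. Lyz2 went from 2.41 to 1.41 and from 2.49 to 1.39 between the first and last bin, and Srgn from 11.4 to 9.04 and from 12 to 9.47. Prtn3 was thus lower in cells rich in Dntt in both suffixes, and remained detectable there. Within CD150-low CD48-high cells the mean went from 5.99 to 2.61 in suffix 1 and from 6.39 to 2.83 in suffix 2.

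Mpo had another course. Its mean was 0.52 UMIs in cells without Dntt and between 0.756 and 1.02 in the bins with Dntt in suffix 1, and in suffix 2 it was 1.01, 2.90, 2.39, 1.83 and 1.02. A Mpo UMI was found in 38.2% and 57.6% of the cells with 15 or more Dntt UMIs, all of which also had Flt3, against 13.4% and 18.3% of cells without Dntt. Within CD150-low CD48-high cells the mean was 0.981, 0.89, 0.917, 1.05 and 0.836 over the bins of suffix 1, so the lower mean without Dntt was not seen there, and 1.72, 3.31, 2.39, 1.83 and 1.02 in suffix 2. The shares with a Mpo UMI were then 38.8% and 57.6% with the most Dntt against 22.7% and 30.2% without it.

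**Figure D5:**
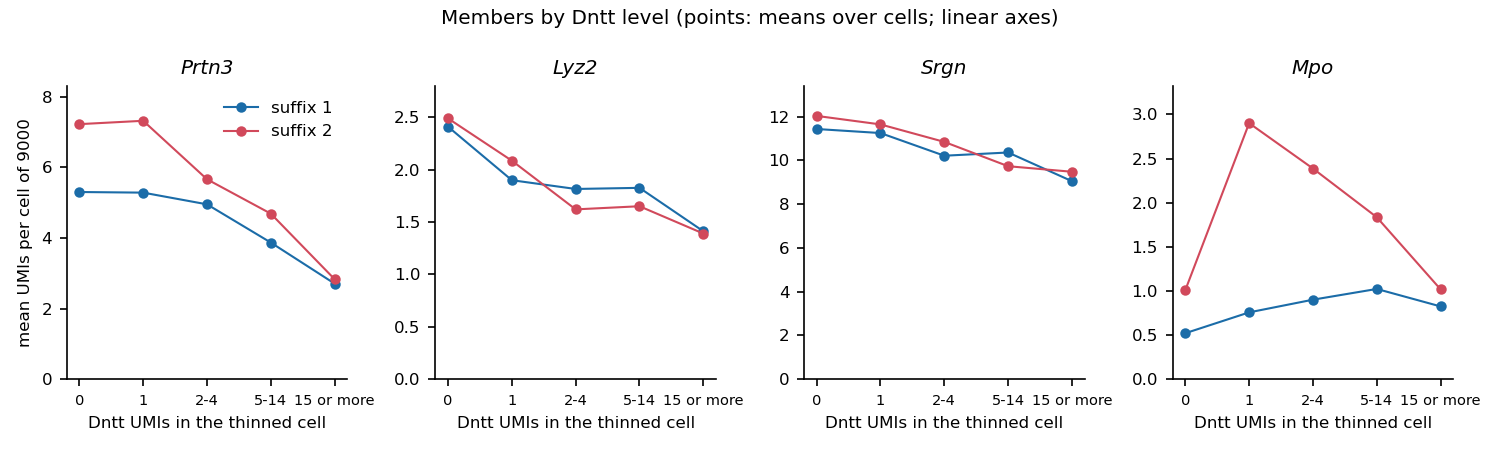
Mean UMIs per cell of Prtn3, Lyz2, Srgn and Mpo (vertical axes, linear and from 0) in cells thinned to 9000 UMIs and placed in bins by their Dntt UMIs (horizontal axis), by suffix, over all kept cells. Prtn3 goes from 5.30 to 2.71 in suffix 1 and from 7.23 to 2.83 in suffix 2 between the first and last bin.

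The genes also overlapped with one another to unlike degrees. In thinned cells of all gates, 52 of 79 Ctsg-positive cells had Mpo (65.8%) in suffix 1 and 293 of 363 (80.7%) in suffix 2, against 16.5% and 15.3% of Ctsg-negative cells. The reverse share was lower, with Ctsg in 18.9% and 48.5% of cells with Mpo. Cells with Ctsg were thus for the most part a subset of those with Mpo.

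Elane-positive cells had Mpo in 5 of 12 cases (41.7%) in suffix 1 and 30 of 42 (71.4%) in suffix 2, beside 19.1% and 24.4% of Elane-negative cells. They had Ctsg in 41.7% and 66.7%. Ms4a3-positive cells had Mpo in 9 of 27 (33.3%) and 42 of 73 (57.5%), so that more than 50% of Ms4a3-positive cells in suffix 1 had no Mpo UMI at this depth. Of the 4 restricted genes, 77.2% and 70.2% of cells had none and 18.6% and 16.8% had 1. All 4 were seen together in 3 cells of suffix 1 and 9 of suffix 2.

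Cells with Ms4a3 were looked at further because of these shares, with genes chosen after the values had been seen. Cpa3, a carboxypeptidase of mast cell and basophil granules, was found in 11.1% of the 27 cells with Ms4a3 against 3.14% of the others in suffix 1 and in 23.3% of 73 against 4.91% in suffix 2. Mcpt8, a basophil protease, was at 11.0% against 2.54% in suffix 2 and in none of 27 cells against 0.286% in suffix 1. Procr, at 18.5% against 35.5% and 26.0% against 52.4%, was lower in them.

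The genes whose pattern over single cells was most like each member were found by Pearson's r of log counts over the 3825 cells with 9000 UMIs or more, among the 9658 genes found in at least 5% of them. Elane and Ms4a3 lie under that share and could not be named as neighbours, and with each other they had r of 0.762 in suffix 1 and 0.513 in suffix 2. These cells share 2 libraries and 1 depth, and r is given as a description. For Mpo the closest were Ctsg (0.713), Cd48 (0.478), whose protein was used for the gates, and Plac8 (0.474), and for Ctsg they were Mpo, Ccl9 (0.408, but 0.131 in suffix 1 and 0.504 in suffix 2) and Cd48 (0.392, with 0.214 and 0.452). Among the genes compared, Elane was closest to Ctsg (0.361), Mpo (0.336) and Anxa3 (0.280), and Ms4a3 to Ctsg (0.288), Mpo (0.276) and Cst7 (0.214). Prtn3 shared no neighbour with them, its closest being Ifitm1 (0.407), Sult1a1 (0.297) and Ifitm3 (0.277). Sult1a1 and Ifitm3 held so in suffix 2 (0.314 and 0.310) but hardly in suffix 1 (0.0288 and 0.0888). Srgn had only Ctla2a (0.240) at 0.2 or above, and Lyz2 had none.

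Other genes of the pathway were read in the same comparison of CD150-low CD48-high with CD150-high CD48-low cells. Of 14 genes of later granules, such as Ltf, Camp and S100a8, 0 reached 20 CPM in both suffixes, and their sum in CD150-low CD48-high cells was 19.0 and 19.2 CPM. Of 19 genes whose products handle or accompany the granule proteins, 16 were measured at that level, 3 were past 2-fold higher in both suffixes, 1 lower (Cd63, a granule membrane protein, at 0.463 and 0.401 times) and 12 neither, beside 3.85% of all genes tested higher and 1.36% lower, with a median ratio of 1.0 and 1.20. Those higher were Ncf1 (10.3 and 24.6) and Ncf4 (4.10 and 34.1), parts of the phagocyte oxidase, and Serpinb1a (4.81 and 16.3), an inhibitor of elastase, cathepsin G and proteinase 3. Ctsc, the protease that activates the 3 proenzymes, was at 0.89 and 0.501 times.

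Of 25 early myeloid genes, 13 were measured, and 6 were higher by 2-fold or more in both suffixes, with a median ratio of 2.23 and 2.06. The largest were Tyrobp (10.6 and 54.0), Nkg7 (8.05 and 55.9), Plac8 (14.2 and 29.6) and Irf8 (15.2 and 8.57). Of the lymphoid priming genes 5 of 9 measured were higher, with a median of 11.0 and 42.5, which was 10.9 and 6.84 without the cells with over 10% immunoglobulin UMIs. Dntt (337 and 164), Ighm (77.1 and 62.7), Flt3 (19.2 and 69.4) and Cd52 (11.0 and 107) were the largest. Immunoglobulin genes of B and plasma cells moved with Ighm, as Igkc was at 1007 and 60.7 times and Jchain at 65.0 and 37.1 times. Without the same cells, Ighm was at 34.6 and 6.84 times, Igkc at 4.60 and 0.825 times, and Dntt at 337 and 165 times. All 12 proliferation markers were higher, with a median of 3.42 and 28.7. The gate with the most Mpo and Ctsg thus held higher levels of some myeloid, some lymphoid and all 12 proliferation genes, while Cebpb, for example, was at 0.821 and 0.38 times, and fewer cells of a kind and less RNA per cell cannot be told apart in the sums of a gate.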

How the data were processed

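LSK cells of 4 young and 4 old mice were profiled as 2 CITE-Seq libraries, 1 per age. The authors deposited UMI counts per gene and cell, made with Cell Ranger 3.1.0 (per the labels, which name mm10 and GRCm38) and an aggregation step that normalized depth between the libraries, so the depths given are those after it. The authors also deposited tag counts on a log10 scale, made with CITE-seq-Count. The annotation used is not given in the sources used here.

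Counts were summed per suffix and gate and divided by all UMIs of the sum (CPM). Intervals are exact at 95%: Poisson for levels, conditional binomial for ratios, Clopper-Pearson for shares, and cover counting error only. Background shares count genes with at least 20 CPM over the tagged cells of a suffix. For detection, cells were thinned without replacement to 9000 UMIs, which left out 96 and 147 shallower cells. Doublets were called with scrublet (scanpy 1.11.5, expected rate 0.06), which marked 6 and 30 cells, 20 of the latter among 241 CD150-high CD48-high cells. In suffix 1 this is under 0.5% of cells, so the caller may have missed doublets. None was removed, as the methods name no removal. 27 and 55 kept cells had no tags and entered no gate. Python 3.11.15, numpy 2.4.6 and scipy 1.17.1 were used, and the ratios and shares were tested on simulated counts.

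The members and gene lists were chosen with earlier results of these data known. Named genes were the 7 members, Flt3 and Dntt, up to 3 genes most like each member where r was at least 0.2, and up to 4 genes of each list with the largest mean log2 ratio. Other genes named were chosen after their values were seen. Promoter windows come from RefSeq, GRCm38.p6, and all 7 genes matched.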

Additional observations from a re-analysis of the deposited data

Results flagged for a closer look

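Prtn3 differed between tag gates in opposite directions in the 2 suffixes, and the difference between the suffixes was not tested. CD150-low CD48-high over CD150-high CD48-low cells gave 1.18 in suffix 1 and 0.706 in suffix 2. CD150-low CD48-high over CD150-high CD48-high cells gave 1.27 and 0.792. CD150-low CD48-low over CD150-high CD48-low cells gave 1.23 and 0.793. Under the stricter cell filter, which left 372 cells, the first of these was 1.88 and 1.21, so that the directions were no longer opposite. With 1 library per suffix, a library effect and any effect of age cannot be told apart.

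Levels of 3 granule genes in CD150-low CD48-high cells thinned to 9000 UMIs also moved in opposite directions when the cells were split by a lymphoid gene, and these differences were not tested either. Mpo in Flt3-positive over Flt3-negative cells was 0.511 in suffix 1 and 1.32 in suffix 2, and Ctsg was 0.649 and 1.66. Elane in Dntt-positive over Dntt-negative cells was 0.00985 and 2.14, on 2 and 225 UMIs in suffix 1 and 96 and 118 in suffix 2, and 84 of the 96 lay in 1 cell. Opposite directions beyond counting error were not seen without the 10 cells with the most Elane UMIs of each suffix. Mpo was then at 0.907, with an interval that holds 1, and at 1.45, Ctsg at 2.14 (1.39 to 3.45) and 2.00, and Elane had 0 and 5 UMIs in suffix 1 and a ratio of 1.66 (0.733 to 3.59) in suffix 2.

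Barcodes outside the cell filter, 172 of suffix 1 and 448 of suffix 2, also held the genes. In suffix 1 the level was 58.7 CPM for Mpo, 424 CPM for Prtn3, 10.2 CPM for Ctsg, 180 CPM for Lyz2 and 878 CPM for Srgn. In suffix 2 it was 114 CPM for Mpo, 3.30 CPM for Elane, 606 CPM for Prtn3, 39.6 CPM for Ctsg, 5.19 CPM for Ms4a3, 243 CPM for Lyz2 and 932 CPM for Srgn.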

How the results depend on the processing

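No paired analysis was possible because each age group is 1 library and the results come from no test. The count of 4 genes past 2-fold higher in CD150-low CD48-high cells in both suffixes became 2 without the 10 cells with the most Elane UMIs of each suffix and 3 with 1 tag cut for both suffixes, which left 33 and 614 CD150-high CD48-low cells. Both of these alternatives, and leaving out immunoglobulin-rich cells, were chosen after seeing the data. The first takes out cells by Elane itself, and the share over all genes was not computed under either. The count of 7 differences between the suffixes became 4 with both tags split at the median, where the share over all genes was not computed either. The share of Mpo-positive cells with Flt3 was 63.3% and 51.9% after thinning to 5000 UMIs, 93.5% and 80.6% without thinning, 84.8% and 69.3% with median splits, and 59.5% in suffix 2 with over 2500 genes and under 5% mitochondrial UMIs required. The share with Dntt was 34.3% in suffix 2 after thinning to 5000 UMIs, 70.6% and 51.3% without thinning, 69.7% and 46.3% with median splits, and 75% in suffix 1 under the stricter cell filter. That filter left 372 cells and turned the direction of Prtn3 in suffix 2, with CD150-low CD48-high over CD150-high CD48-low at 1.88 and 1.21. The causes were not tested. Of 56 levels by gene, gate and suffix, 54 stayed within their intervals without called doublets (those outside were Mpo and Ctsg in CD150-high CD48-high cells of suffix 2), 56 without immunoglobulin-rich cells, 52 without a cell filter, 46 with size factors, 44 without the cells with the most Elane, 43 without the deepest cells, 38 with the mean of CPM per cell, 22 with 1 tag cut, 15 with median splits and 6 under the stricter cell filter. Without the filter on low levels the background was 3.77% of 16746 genes. Depth limits the CD48-low gates, where Mpo, Elane, Ctsg and Ms4a3 rest on 20 UMIs or fewer.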

Other observations

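Cells with a UMI of both Gata1 and Klf1, factors of erythroid precursors, numbered 6 in suffix 1 and 14 in suffix 2 and were chosen after the values were seen. Prtn3 stood at 35.0 and 199 CPM in them, under its level in every tag gate of the same suffix, while Srgn stood at 1493 and 1515 CPM. In suffix 2, 1 of the 14 cells was among the 10 with the most Elane UMIs and held 61 of the 72 Ms4a3 UMIs. With it Mpo was at 314 CPM, Elane at 30.5 CPM and Ms4a3 at 169 CPM. Without it Mpo was at 19.9 CPM, Elane had no UMI, Prtn3 was at 117 CPM and Ms4a3 at 27.4 CPM (11 UMIs in 5 of 13 cells, interval 13.7 to 49.0). In suffix 1 Ms4a3 was at 29.2 CPM (5 UMIs in 2 of 6 cells, interval 9.47 to 68.1) and Mpo at 35.0 CPM.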
